A study of Sus scrofa with 6 samples.

Results

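The folate receptor gene FOLR1 and the enzymes of folate-dependent carbon metabolism PHGDH, PSAT1, SHMT1, MTHFD1, MTHFD2 and TYMS were described in 6 clones of pig (Sus scrofa) keratinocytes, the cells of stratified surface epithelium. The members were taken by gene symbol from a list of 8 genes. A gene counted as measured where at least 1 probe set of the array carried its symbol and no other, and it was represented by the probe set with the highest mean over the 6 arrays. Of the 8 genes, 7 were measured, by 12 probe sets, among 6765 genes with such a probe set and 23999 probe sets in all. SHMT2, the mitochondrial serine hydroxymethyltransferase, was not analysed here.

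One group was 3 clones of corneal keratinocytes from the central cornea, away from the limbus, and the other 3 clones of conjunctival keratinocytes. The labels give no treatment, and all clones came from biopsies of white domestic pigs, of which the labels name 2 without assigning clones to them. Clones of a tissue may thus share a pig and are not known to be separate animals. A difference between pigs cannot be told apart from a difference between tissues here. Each clone was founded by a single cell and cultured over a feeder layer of the mouse fibroblast line 3T3-J2, irradiated beforehand. The project name in the run files of the arrays refers to a time course of irradiation, of which the labels say nothing, and the groups here follow the labels. Total RNA of each clone was hybridised to 1 Affymetrix porcine array. Levels are log2 RMA values, on which a difference of 1 is a 2-fold difference, and a level of 1 probe set cannot be set against that of another. The array medians lay between 4.4 and 4.478, and a probe set below them is called dim here.

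Folate is a vitamin whose reduced forms carry single carbon units. Cells take it up by membrane receptors such as FOLR1 and by transporters, load it with carbon taken mainly from serine, and spend that carbon on thymidylate, purines and the methionine cycle. PHGDH, PSAT1 and PSPH make serine from a glycolytic intermediate, SHMT1 moves the carbon of serine to folate in the cytosol, and the MTHFD enzymes interconvert the carbon-carrying forms in cytosol and mitochondria. TYMS uses such a form to make thymidylate for DNA, so its transcript is known to be high in proliferating cells.

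FOLR1 was higher in every conjunctival clone than in any corneal clone, and PHGDH was lower in every conjunctival clone. The other 5 genes overlapped between the tissues. In the comparison of the tissues as designed, FOLR1 and PHGDH had small unadjusted p-values, but neither passed after adjustment. The list was chosen by the results of this same comparison. The tissue differences of the members are therefore given as a description, without a test. In that comparison of conjunctiva with cornea, limma with Benjamini-Hochberg adjustment called 0% of the 23999 probe sets at an adjusted p of 0.05. Under an unadjusted p of 0.05 lay 648 probe sets (2.7%), where 1200 would be expected if none differed. The 3 values of each tissue did not overlap for 2 of the 7 members and for 7.28% of all probe sets. A difference of at least 2-fold between tissue means was seen for 1 member, FOLR1, and for 0.488% of all probe sets. These values come from whole clones, in which fewer cells of a kind and less RNA per cell cannot be told apart.

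**Figure D1:**
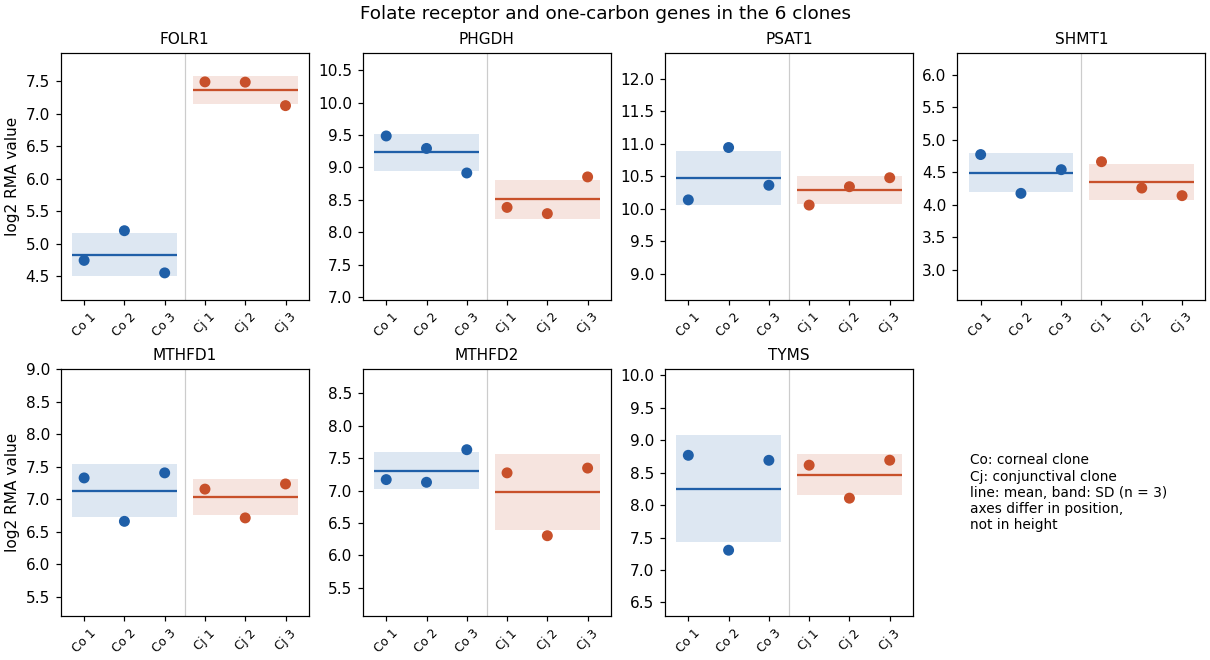
Log2 RMA value (vertical axis) of each measured member in the 3 corneal clones (Co, blue) and the 3 conjunctival clones (Cj, orange), with the mean as a line and the SD as a band (n = 3). All panels span the same height. FOLR1 separates the tissues widely and PHGDH narrowly, while the TYMS value of cornea 2, at 7.30, lies below those of the other 5 clones.

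FOLR1 is known as the gene of a folate receptor that is anchored to the outer face of the cell membrane and takes folate in by endocytosis. Its level was 4.74, 5.20 and 4.55 in corneal clones 1, 2 and 3. In conjunctival clones 1, 2 and 3 it was 7.49, 7.49 and 7.12. The highest corneal clone thus lay well below the lowest conjunctival clone. Corneal clones 1 and 3 were near the array medians of 4.4 to 4.478, though not below them. The corneal level, and with it the size of the difference, is therefore less certain. The mean was 4.83 ± 0.33 (SD, n = 3) in cornea and 7.37 ± 0.21 (SD, n = 3) in conjunctiva, a log2 difference of 2.54 (SE 0.20). Between clones of the same number the difference was 2.75, 2.29 and 2.58. It was 2.56 within fluidics station 1, which washed cornea 1, conjunctiva 2 and conjunctiva 3, and 2.62 within station 2, which washed the other arrays. Each station thus held a single array of 1 tissue. The fluidics module was numbered 3, 3 and 4 for the corneal arrays and 2, 2 and 1 for the conjunctival arrays, so module and tissue cannot be told apart in any difference between the tissues. The spread within a tissue was ordinary: its pooled SD of 0.28 stood at percentile 58 of the brighter probe sets, meaning those whose mean reached the median of all.

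The array held a second probe set with the symbol FOLR1, and it belonged to another gene. The probe set described above is annotated to gene ID 396784 and the other to gene ID 397579. A RefSeq gene table of the assembly Sscrofa11.1 lists both as separate protein-coding genes that are both named FOLR1, with 0 genes between them. Only 9 of the 6765 symbols were shared by more than 1 gene ID in this way. Which of the genes named FOLR1 corresponds to human FOLR1 was not settled, so the function given above rests on the symbol. The probe set of gene ID 397579 was dim in all 6 clones, at 3.82, 3.85 and 3.73 in cornea and 3.76, 3.92 and 3.78 in conjunctiva. It differed by 0.02 (SE 0.10) between the tissues. By this annotation the values of that probe set are no second reading of the gene that differed, and whether either probe set also binds the transcript of the other gene was not tested.

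FOLR2, a folate receptor gene known from macrophages, lies near them with 1 gene between it and gene ID 397579. Its level was 6.04, 6.04 and 5.29 in cornea and 5.63, 5.39 and 5.03 in conjunctiva. The tissues overlapped, and the difference of -0.44 (SE 0.25) had the sign opposite to that of FOLR1. It did not pass (limma adjusted p = 0.9999). Leukocyte markers stood beside it as follows: 6 of the 7 measured, including CD14, CD163, TYROBP and PTPRC, were dim in all 6 clones, and the mean of the 7 ran from 4.01 to 4.52 in cornea and from 3.90 to 4.32 in conjunctiva. AIF1 was the exception, with levels from 6.33 to 8.45. The part of these markers in the FOLR2 values was not tested.

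**Figure D2:**
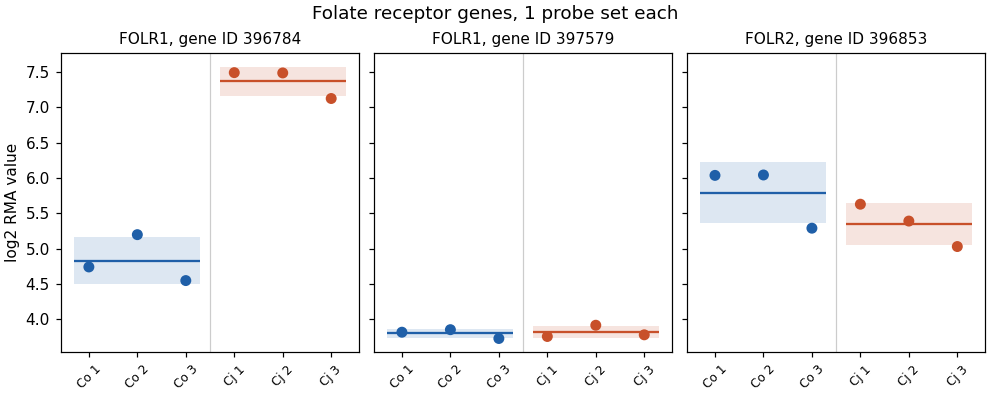
Log2 RMA value (vertical axis) of the probe sets of 3 folate receptor genes in the corneal (Co, blue) and conjunctival (Cj, orange) clones, with mean and SD (n = 3); levels of different probe sets are not comparable. Gene ID 396784 differs by 2.54 between the tissues, gene ID 397579 is flat near 3.8, and FOLR2 overlaps between the tissues.

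The other measured genes of folate uptake and storage showed no such separation. SLC46A1, the proton-coupled folate transporter, differed by -0.04 (SE 0.21), and GGH, which trims the glutamate tail that keeps folate in the cell, by 0.17 (SE 0.13). The second and the third GGH probe sets differed by 0.08 and -0.07. Neither gene passed (limma adjusted p = 0.9999). The reduced folate carrier gene SLC19A1, the mitochondrial folate carrier gene SLC25A32 and FPGS, which adds the glutamate tail, were not analysed here.

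PHGDH catalyses the first step of serine synthesis. Its level was 9.49, 9.29 and 8.92 in corneal clones 1, 2 and 3. In conjunctival clones 1, 2 and 3 it was 8.39, 8.29 and 8.85. The tissues did not overlap, but cornea 3 and conjunctiva 3 were only 0.06 apart, while the clones numbered 1 and 2 differed by -1.10 and -1.0. The mean was 9.23 ± 0.29 (SD, n = 3) in cornea and 8.51 ± 0.30 (SD, n = 3) in conjunctiva, a difference of -0.72 (SE 0.21). The difference was -0.91 within station 1 and -0.72 within station 2, and it ran from -0.89 to -0.59 when each clone was left out in turn.

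The next enzymes of the same route overlapped between the tissues, and whether their differences depart from that of PHGDH was not tested. PSAT1, which makes phosphoserine, was at 10.14, 10.95 and 10.36 in cornea and at 10.06, 10.34 and 10.48 in conjunctiva. Of the conjunctival values 2 lay inside the corneal range, and the highest value was that of cornea 2. The difference was -0.19 (SE 0.23), and 0.04 without cornea 2. It was 0.27 within station 1 and -0.60 within station 2. PSPH, which releases serine, was at 8.18 ± 0.47 in cornea and 8.48 ± 0.31 in conjunctiva (SD, n = 3), a difference of 0.30 (SE 0.27) with the sign opposite to that of PHGDH (limma adjusted p = 0.9999). The neutral amino acid transporter genes SLC1A4 and SLC1A5, which bring serine or glutamine into cells, differed by -0.06 (SE 0.11) and -0.08 (SE 0.18).

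PHGDH, PSAT1 and the mitochondrial enzymes of the pathway are known targets of ATF4, the transcription factor of the amino acid response. ATF4 itself was at 10.53 ± 0.19 in cornea and 10.46 ± 0.20 in conjunctiva (SD, n = 3), a difference of -0.07 (SE 0.15). Its target ASNS, asparagine synthetase, differed by -0.22 (SE 0.24), and the stress-induced factor gene DDIT3 by 0.03 (SE 0.24). Of 14 measured genes of the amino acid response, 0 passed in either direction by limma, 0 had an unadjusted p under 0.05, 6 were higher and 8 lower in conjunctiva, and the median difference was -0.013. The median over all probe sets was -0.002.

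SHMT1 was near the array medians in every clone. Its level was 4.77, 4.17 and 4.54 in cornea and 4.66, 4.26 and 4.14 in conjunctiva. The tissues overlapped throughout. The difference was -0.14 (SE 0.20), with -0.57 within station 1 and 0.31 within station 2. The other SHMT1 probe set, also near the array medians, differed by 0.18 (SE 0.13), so the direction depended on the probe set.

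MTHFD1 is the cytosolic enzyme with 3 activities that prepares folate carbon for purine and thymidylate synthesis. Its brightest probe set was at 7.33, 6.66 and 7.41 in cornea and at 7.16, 6.71 and 7.24 in conjunctiva. Clone 2 was the lowest in both tissues. The difference was -0.10 (SE 0.24), and it became 0.04 without cornea 3 and 0.06 without conjunctiva 2. It was -0.35 within station 1 and 0.12 within station 2.

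Both other MTHFD1 probe sets were highest in cornea 1. The brighter of them was at 6.92, 5.06 and 5.74 in cornea and at 5.50, 4.98 and 5.72 in conjunctiva. In the dimmer one cornea 1 stood at 5.47 and the other 5 clones between 4.25 and 4.70. Cornea 1 had the smallest gap between the controls for the 3' and the 5' end of a transcript, which is read as RNA quality, a small gap standing for longer labelled RNA. The gap was 0.46 for actin and 0.25 for GAPDH, against ranges of 0.55 to 1.11 and 0.52 to 0.97 in the other clones. Cornea 1 was also the highest clone for 31.6% of the 1547 brighter probe sets that were not the brightest of their gene, and for 13.8% of the brightest probe sets of genes with several. The part of RNA quality in the MTHFD1 values was not tested.

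MTHFD2, the mitochondrial enzyme known for its high levels in embryonic and proliferating cells, was at 7.17, 7.13 and 7.63 in cornea. In conjunctiva it was at 7.27, 6.30 and 7.35. Conjunctiva 2 was the lowest clone by a wide margin, and the other 2 conjunctival clones lay within the corneal range. The difference was -0.33 (SE 0.30), and it was 0.00 without conjunctiva 2. Within stations 1 and 2 it was -0.34 and -0.11. Its mitochondrial partner MTHFD1L, which releases formate, varied more but not by tissue, from 7.36 in cornea 1 to 9.02 in cornea 3, with conjunctival values of 8.46, 8.01 and 8.80 (difference 0.33, SE 0.43). The folate dehydrogenase genes ALDH1L1 and ALDH1L2 differed by 0.04 (SE 0.17) and -0.10 (SE 0.14).

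TYMS, thymidylate synthase, was at 8.77, 7.30 and 8.69 in cornea and at 8.61, 8.11 and 8.69 in conjunctiva. Cornea 2 stood apart below the others, and conjunctiva 2 was the next lowest. The mean was 8.25 ± 0.82 (SD, n = 3) in cornea and 8.47 ± 0.32 (SD, n = 3) in conjunctiva. The difference was 0.22 (SE 0.40), and it turned to -0.26 without cornea 2. Within station 1 it was -0.37 and within station 2 it was 0.62. The spread within tissues was wide, with a pooled SD of 0.62 at percentile 93.5 of the brighter probe sets. The second TYMS probe set was dim in all clones (mean 3.54) and differed by -0.01.

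Genes of DNA replication and the cell cycle were low in the same clone. Of 17 measured cell cycle genes, 15 had their lowest value in cornea 2 and the other 2 in conjunctiva 2. On average these genes lay 1.04 below their mean over the 6 clones in cornea 2 (a deviation of -1.04), and TYMS had a deviation of -1.06 there. The remaining clones had cell cycle deviations from -0.06 to 0.40. RRM2, the ribonucleotide reductase subunit that makes deoxynucleotides in S phase, was at 6.52 in cornea 2 and between 8.41 and 9.15 in the other 5 clones. Its difference between tissues was 0.64 (SE 0.64), and -0.14 without cornea 2. RRM1, the large subunit, was at 7.83 in cornea 2 and between 8.25 and 8.63 elsewhere. PCNA, the clamp of DNA polymerase, was at 6.10 in cornea 2 and between 7.60 and 8.30 elsewhere, and the replication helicase gene MCM2 and the topoisomerase gene TOP2A were also lowest there, at 4.97 and 5.06. CCNB2, a mitotic cyclin gene, was the 1 gene of the lists other than FOLR1 that differed by at least 2-fold between tissue means, at 1.15 (SE 0.57), and it differed by 0.46 without cornea 2. None of these genes passed (limma adjusted p = 0.9999), and the part of the cell cycle in the TYMS values was not tested.

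**Figure D3:**
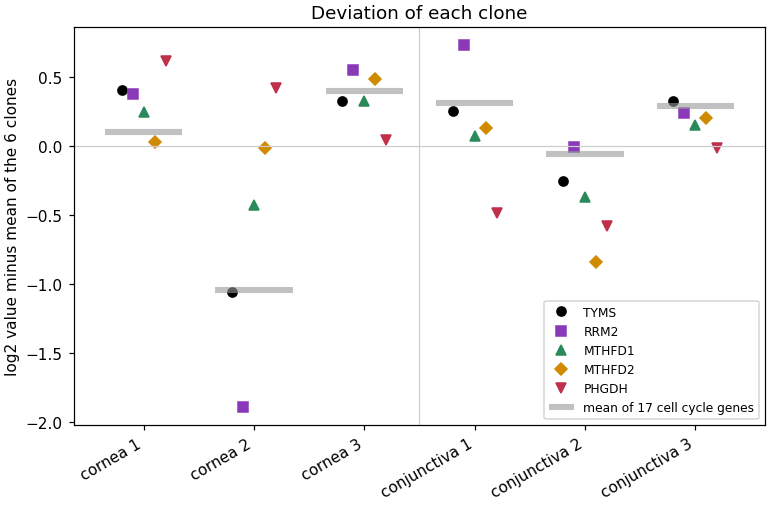
Deviation of 5 genes from their own mean over the 6 clones (vertical axis, log2) in each clone (horizontal axis), with the mean deviation of the 17 measured cell cycle genes as a grey bar. TYMS lies on or near the grey bar in cornea 2 (-1.06 against -1.04), MTHFD2 is lowest in conjunctiva 2 (-0.84) and PHGDH is lowest in conjunctiva 1 and 2.

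Apart from the members, 36 of 65 listed genes of the pathway were measured, and 0 of the 36 passed in either direction by limma, where the share over all probe sets was 0%. None had an unadjusted p under 0.05, and in fits without 1 clone this count ran from 0 to 3, with 3 without cornea 3. In conjunctiva 15 were higher and 21 lower, and 49.2% of all probe sets were higher. After array median centring 16 of the 36 and 56.3% of all probe sets were higher. The median difference was -0.045, with values from -0.52 to 0.64. The tissues did not overlap for 1 gene, PPAT, the first enzyme of purine synthesis, which was dim in all clones and is named after its values were seen. That is 2.78% of the 36, against 7.28% of all probe sets. For 31 of the 36 genes (86.1%) the 95% interval of the difference lay within 2-fold in either direction. The share was 89.3% of the 6765 genes with 1 probe set each, and 91.9% of all probe sets. Of the 36, the 5 genes with a wider interval were FOLR2, MTHFD1L, RRM2, RRM2B and CTH.

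Purine synthesis takes up folate carbon at the steps of GART and ATIC. In conjunctiva 3 of 11 measured genes were higher and 8 were lower, and the median was -0.132. GART differed by 0.14 (SE 0.16), but both its other probe sets had the opposite sign, at -0.19 and -0.17. ATIC differed by 0.07 (SE 0.37), and its 3 other probe sets by -0.12, -0.30 and -0.07. Like TYMS, ATIC was lowest in cornea 2, at 6.01, and next lowest in conjunctiva 2, at 6.50, while the other 4 clones lay between 6.99 and 7.39. PAICS differed by -0.17 (SE 0.17). Cornea 3 was the highest clone for 7 of the 11 genes.

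The methionine cycle takes the methyl group of folate through MTR and hands it to methylation reactions through MAT2A and AHCY. Of 8 measured genes of this cycle and of transsulfuration, 3 were higher and 5 lower in conjunctiva (median -0.066). MAT2A was nearly level at 9.03 ± 0.04 in cornea and 8.94 ± 0.20 in conjunctiva (SD, n = 3). MTR and AHCY differed by 0.05 (SE 0.13) and 0.03 (SE 0.17). CTH, which makes cysteine, varied strongly between clones without parting the tissues, at 5.51, 6.11 and 7.12 in cornea and 6.34, 4.72 and 6.52 in conjunctiva. Its lowest clone, conjunctiva 2, was also the lowest for MTHFD2, and its highest clone, cornea 3, the highest.

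**Figure D4:**
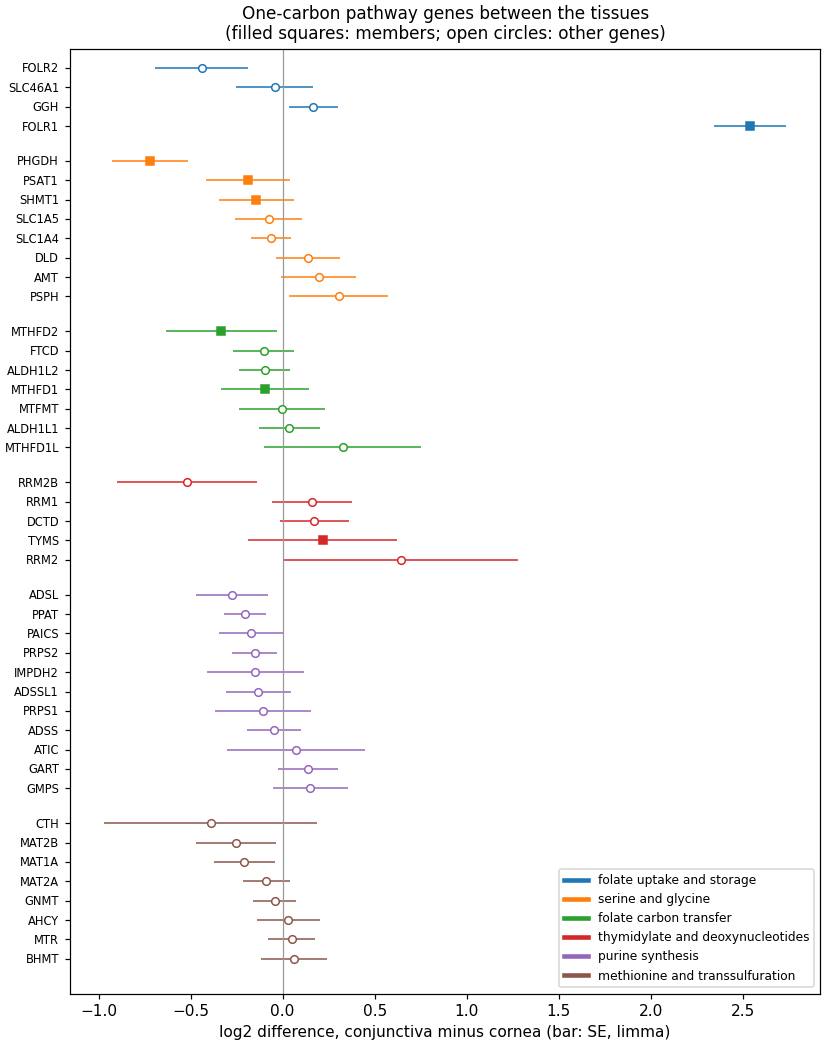
Log2 difference between tissue means, conjunctiva minus cornea (horizontal axis, bar: SE of the limma fit), for the 7 measured members (filled squares) and 36 other genes of the pathway (open circles), coloured by list. FOLR1 at 2.54 lies far to the right of all other genes, which lie between -0.72 and 0.64.

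The members were also set against the 6758 other genes with a single symbol, by the root mean square difference between log2 profiles centred on their own mean, over the 6 clones. This was done for the 4 members whose values spanned at least 1, a span that 16.5% of all genes reached. For FOLR1 and PHGDH such likeness includes the tissue difference by which they were chosen. The closest profiles to FOLR1 were those of SNRPN (0.50), the retinoic acid binding protein gene CRABP2 (0.69) and the chemokine gene CXCL14 (0.72). SNRPN was at 4.34, 5.04 and 5.63 in cornea and 7.37, 7.62 and 7.72 in conjunctiva. CXCL14 was at 5.83, 5.6 and 4.14 in cornea and 6.44, 7.61 and 7.93 in conjunctiva. CRABP2 was at 9.44, 9.64 and 9.38 in cornea and 11.88, 11.48 and 9.88 in conjunctiva. As for FOLR1, the tissues did not overlap for any of these genes, but in CRABP2 conjunctiva 3 lay near the corneal clones. This distance grows with the span of a profile, so its size is not comparable between members. EML2 (0.18), PCOLCE2 (0.19) and SCNN1B (0.19), which encodes a subunit of the epithelial sodium channel, were nearest to PHGDH. EML2 was at 7.89, 8.0 and 7.39 in cornea and 7.25, 6.67 and 7.27 in conjunctiva.

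The profile of MTHFD2 was closest to those of HSPD1 (0.11), the mitochondrial chaperonin gene, IDH2 (0.11), a mitochondrial isocitrate dehydrogenase gene, and UTP15 (0.12), a gene of ribosome assembly. HSPD1 was at 10.98, 10.68 and 11.42 in cornea and 10.91, 10.16 and 11.19 in conjunctiva, again lowest in conjunctiva 2. TYMS was closest to the splicing factor gene SRSF7 (0.10), the mitotic gene BIRC5 (0.10) and APITD1 (0.11). BIRC5 was at 7.43, 5.87 and 7.44 in cornea and 7.52, 6.82 and 7.34 in conjunctiva, with the same low clones as TYMS. Among the members themselves, the smallest distances were those of SHMT1 with MTHFD1 (0.24), MTHFD1 with MTHFD2 (0.28) and MTHFD1 with TYMS (0.29). SHMT1 and MTHFD1 also had the narrowest spans, at 0.63 and 0.75, so these distances do not rank likeness. FOLR1, with the widest span, was at least 1.36 from every other member.

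The keratinocyte label was checked on 8 of 15 listed markers that were measured. Of these 7, among them the desmosome gene DSP, PERP and SFN, were above the array median in all 6 clones, and ITGA6 was dim in all. KRT5, KRT14 and TP63 were not analysed here. Melanocyte and endothelial markers were dim in all clones for 2 of 5 and 4 of 6 measured genes. At or above the array median in all clones were 1 melanocyte marker, SOX10, and 2 endothelial markers. These 2 were PECAM1, from 7.11 to 8.22, and VWF, from 4.82 to 5.33. Of 10 fibroblast and keratocyte markers, 3 were dim and 6 were at or above the array median in all clones. Among the latter were the surface protein gene THY1, from 9.66 to 12.24, and the collagen gene COL1A2, from 6.40 to 7.81. The mean of the 10 ran from 5.84 to 5.91 in cornea and from 5.54 to 6.07 in conjunctiva. In conjunctiva 8 of the 10 were lower and 2 higher. The tissues did not overlap for 3 of them, against 7.28% of all probe sets: COL5A1 differed by -0.57 (SE 0.28), PRRX1 by -0.38 (SE 0.18) and LUM, which was dim in all clones, by -0.07 (SE 0.09). None passed (limma adjusted p = 0.9999), and the part of such cells in the values of the members was not tested. PECAM1 was the endothelial marker that differed most, by 0.56 (SE 0.20, limma adjusted p = 0.9999).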

How the data were processed

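The deposited values are on the log2 scale and were made by the authors with RMA (background subtraction, quantile normalisation, 1 value per probe set), per the submitters' processing notes. Neither its version nor the set of arrays normalised together is given in the sources used here. This normalisation hides a change in total RNA per cell. Precision is limited by the number of arrays, 6.

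Control probe sets (124) were removed, and no filter on low values was used. The annotation table of the array named 10069 probe sets with 1 symbol, 198 with several (not used) and left 13732 unnamed. By gene ID, 9961 of the first matched the RefSeq table, including 11 of the 12 of the members (not MTHFD2). Conjunctiva was compared with cornea by limma 3.58.1 in R 4.3.3 (two-sided, Benjamini-Hochberg over all probe sets), which was tested on simulated data. The members and gene lists were chosen with earlier results of these data known.

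The text names the members, 36 pathway genes fixed by symbol (24 of them measured), list genes past the threshold or at least 2-fold apart, and the 3 nearest profiles of members spanning at least 1. Cell type markers from the fixed lists, and PPAT and RRM2B, were named outside this rule after their values were seen. The others of the 36, such as GLDC, GCSH, MTHFD2L, TK1, CBS, SLC7A11 and MKI67, were not analysed here.

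The labels number clones 1 to 3 in each tissue. For clones that share a number, deviations from the tissue means correlated across probe sets (r = 0.354, 0.169 and 0.349), so a block for the number was an alternative. Deviations from a tissue mean cancel out over its clones, so positive values here go with values for different numbers that are negative on balance. Clones that share a number were thus more alike on balance than clones that do not. The labels do not say that clones are paired by number, and what such clones share was not tested. Separate cultures are not stated, and the p-values measure only the spread between these samples. Fluidics station and module were read from the deposited run files, which hold other settings of the instrument. No sequences of these genes were at hand.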

Additional observations from a re-analysis of the deposited data

How the results depend on the processing

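The count of probe sets past an adjusted p of 0.05 was 2 with limma's trend and robust options and 1 when 1 probe set per gene was tested. FOLR1 was among the former 2 and was the latter 1. The list was chosen by this comparison, so these calls are no independent support for FOLR1. The count was 0 in the other alternatives, among them each fit without 1 clone (0 to 0) and the unmoderated test. It was also 0 with the module as a random block, which was added after the data had been seen. No module washed arrays of both tissues, so that fit says nothing on module against tissue. With the clone number as a block (replicate block) it was 0, with 1204 at an unadjusted p under 0.05 in place of 648. If no probe set differed, 1200 would be expected. The number of the 36 other pathway genes at an unadjusted p under 0.05 was 0 in the comparison as designed, 1 with the replicate block, within station 1 and without conjunctiva 2 or 3, and 3 without cornea 3. The count of pathway genes past the threshold stayed at 0 in all alternatives (0 to 0 without 1 clone), and their median ran from -0.098 to 0.052 without 1 clone. The replicate block changed no call. Each clone number holds 1 array of each tissue, so this block could not change the difference of any member.

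The difference of FOLR1 was 1.28 as the mean of both its probe sets, which belong to 2 genes. Within a station, where 1 tissue had a single array assumed to vary like the others, PSAT1 was at 0.27 and -0.60 and SHMT1 at -0.57 and 0.31. Without 1 clone the differences ran from 2.40 to 2.72 for FOLR1, -0.89 to -0.59 for PHGDH, -0.36 to 0.04 for PSAT1, -0.30 to 0.00 for SHMT1, -0.33 to 0.06 for MTHFD1, -0.52 to 0.00 for MTHFD2 and -0.26 to 0.47 for TYMS. FOLR1 and PHGDH kept their sign in 13 of 13 alternatives, PSAT1, SHMT1 and TYMS in 11, MTHFD1 in 9 and MTHFD2 in 12. The tissues did not overlap for FOLR1 and PHGDH, so no fit on a part of the clones could have changed their sign. Their counts were thus largely fixed beforehand. No alternative was run for SHMT2. Dim probe sets, such as those of gene ID 397579 and the second of TYMS, lie below the array medians, where a difference may be too small to be seen.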
